A study of Mus musculus with 9 samples.

Results

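The 251 probe sets described here are those that set marrow L-GMP apart from both other groups of this mouse array series. L-GMP are the granulocyte-macrophage-progenitor-like cells of bone marrow carrying an MLL-AF9 leukemia. The members were chosen by their measured signals: all 3 L-GMP arrays lay above, or all lay below, the 6 other arrays. The L-GMP mean also had to be at least 2-fold from each other group mean, and those 2 means less than 1.5-fold apart. Signals under 62.4, the 25th percentile of the table, were first set to that floor. Of 22626 probe sets, 151 met the rule on the higher side and 100 on the lower side, which stand for 113 and 77 named genes. Of the members, 138 higher and 93 lower probe sets are annotated to 1 gene, 4 and 2 to several, and 9 and 5 to none. The low-signal filter used for the tests was passed by 145 higher and 100 lower members; the other 6 stayed in the description. The signals that selected these genes are given below as a description, with no test of the members themselves.

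The 3 groups of 3 arrays each were compared, all of them on total RNA from sorted hematopoietic cells. The GMP group is normal granulocyte-macrophage progenitors, and the L_GMP group is the GMP-like fraction isolated from leukemic bone marrow. The AKLG group is titled by that code alone and has L-GMP as its source. It was read as the cells grown in vitro from L-GMP because the design text names 3 kinds of cell and the other 2 are accounted for. About 50000 sorted cells were taken into trizol per sample and about 50 ng of RNA was labelled with biotin. The labels used here give no strain, age, sex, number of mice, retroviral construct, culture medium or time in culture. Whether replicate arrays stand for different mice or cultures is not recorded. The p-values therefore weigh differences against array-to-array spread alone, part of which may be technical.

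Granulocyte-macrophage progenitors (GMP) are committed marrow cells that give rise to neutrophils and monocytes and that have lost the self-renewal of stem cells. MLL-AF9 joins the N-terminal part of the MLL chromatin regulator to AF9, a partner that recruits transcription elongation factors, and it keeps HoxA cluster genes and their cofactors active. L-GMP can pass the leukemia on to further mice, and they can also be kept growing in culture. Hoxa9 was outside the set: its signals were 5617, 5312 and 5369 in L-GMP, 6003, 5108 and 5139 in AKLG, and 1394, 1745 and 1658 in GMP. It was high in both leukemic groups, so the rule could not take it.

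Arrays of 1 group correlated at 0.977 to 0.991 over probe sets that passed the filter, except for AKLG replicate 1, which correlated with the other AKLG arrays at 0.958 and 0.964. Without that array the rule took 160 higher probe sets, 125 of them among the 151, and 101 lower ones, 86 of them among the 100. Of 9 markers fixed for GMP, 9 had all 3 arrays above the table's 40th percentile in L-GMP, 9 in GMP and 7 in AKLG. L-GMP and GMP therefore carried every one of these markers, and 2 were below that level in AKLG. The signal ratio of the 3' to the 5' beta-actin control probe set was 5.17 ± 0.355 (SD, n = 3) in L-GMP and 7.23 ± 0.446 (SD, n = 6) on the other arrays. An exact permutation test (two-sided) gave p = 0.0238 for this difference, and 3 against 6 arrays can give none smaller; the same ratio for Gapdh had p = 0.69. The part of RNA quality in the results was not tested.

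Over all 22626 probe sets, 1652 (7.3%) had all 3 L-GMP signals above the 6 others and 1727 (7.63%) had them all below. Adding the 2-fold limit left 217 and 149, and the limit between GMP and AKLG left the 151 and 100 members. The same rule took 289 probe sets with AKLG as the group apart and 237 with GMP apart. L-GMP was therefore set apart by a number of probe sets that lies between those of the other groups. Among the members the median fold against the nearer group was 2.36 on the higher side and 2.49 on the lower side. At least 4-fold was reached by 23 higher and 15 lower probe sets, and 86 and 51 were under 2.5-fold. Most members therefore lay close to the limit that chose them, with a short tail of large differences.

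**Figure D1:**
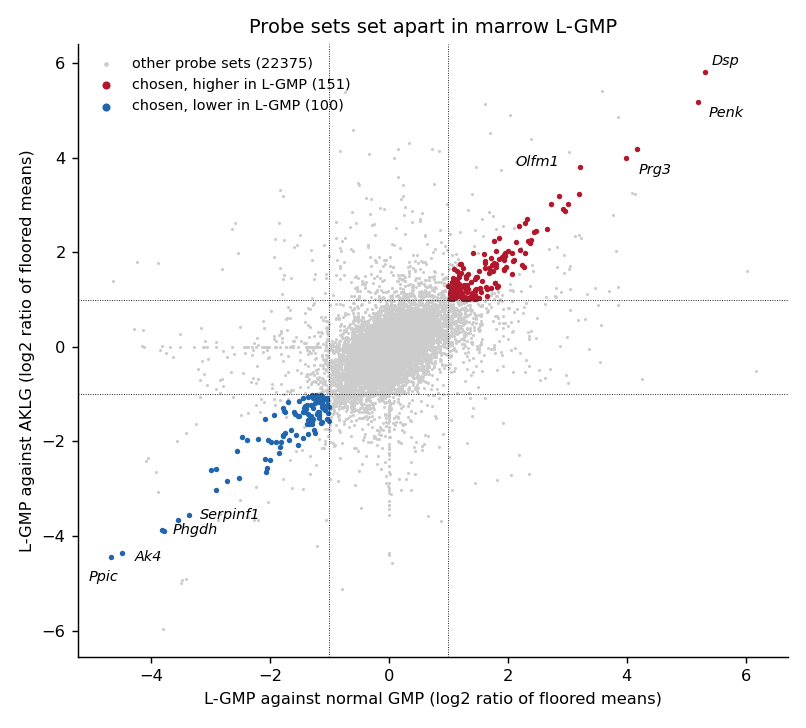
Each point is 1 probe set; the horizontal axis is the log2 ratio of the L-GMP mean to the GMP mean and the vertical axis the log2 ratio to the AKLG mean, both after the floor. The 151 higher members are red, the 100 lower members blue and all other probe sets grey, and dotted lines mark 2-fold; Dsp and Penk lie farthest out on the higher side, Ppic and Ak4 on the lower side.

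Dsp, Penk and Prg3 had the largest folds on the higher side. Desmoplakin, Dsp, ties desmosomes of epithelia and heart muscle to intermediate filaments. Its signals were 3963, 3409 and 3186 in L-GMP, 51.0, 28.3 and 17.4 in AKLG, and 101, 79.2 and 85.2 in GMP. All 3 L-GMP arrays were bright while AKLG lay wholly under the floor. The L-GMP mean of 3519 ± 399.9 (SD, n = 3) was 39.8-fold above GMP and at least 56.4-fold above AKLG, the largest difference of the set. A second Dsp probe set, also a member, read 1383, 1001 and 1002 in L-GMP and no more than 20.8 on any other array.

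Of 9 higher genes of junctions, matrix and adhesion, the smallest fold against the nearer group was 2.07 and the median 2.96. Tfpi2, a secreted protease inhibitor of the extracellular matrix, read 551, 341 and 259 in L-GMP against 78.1 to 124 in AKLG and 99.0 to 101 in GMP. Col4a1, a basement membrane collagen chain, read 393, 501 and 282 in L-GMP and 86.1 to 138 elsewhere, and a second Col4a1 member probe set gave a fold of at least 3.96. The adhesion receptor Ceacam1 was a member through 4 probe sets. The brightest read 2535, 1661 and 1640.3 in L-GMP and 514 to 788 on the other 6 arrays. A further Ceacam1 probe set that passed the filter overlapped the other groups, at means of 348 in L-GMP, 272 in AKLG and 297 in GMP. Keratin Krt80, the integrin chain Itgb7, the ephrin receptor Epha7, the receptor kinase Mst1r and the endothelial adhesion molecule Vcam1 completed this role.

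Vcam1 was a member through a dim probe set that read 220.2, 185 and 144 in L-GMP and 69.6 to 96.4 on the other arrays. A brighter Vcam1 probe set, outside the rule because GMP and AKLG differed there, averaged 3365 ± 589 in L-GMP, 643 ± 48.7 in GMP and 161 ± 39.96 in AKLG (SD, n = 3 each). The summed signal of 9 stromal and endothelial markers was 3730 to 4975 in L-GMP, 958 to 974 in AKLG and 1428 to 1528 in GMP, and Vcam1 itself made up most of it in L-GMP. The collagen genes Col1a1, at 76.6, 137 and 86.8 in L-GMP and no more than 57.2 elsewhere, and Col1a2, at 106, 98.9 and 137 against no more than 94.8, also lay above the 6 other arrays. Kdr (139 to 209 in L-GMP), Sparc (187 to 219), Lepr (87.0 to 134), Cxcl12 (70.4 to 78.6) and Cdh5 (54.1 to 68.8) overlapped the other groups, and Pecam1 was at the floor on all 9 arrays. The part of such cells in the results was not tested.

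The actin cytoskeleton accounted for 7 higher genes with folds of 2.17 to 5.64. Syne1, which anchors the nuclear envelope to actin, read 2153, 1802 and 1574 in L-GMP, 193, 421 and 366 in AKLG, and 329, 261 and 288 in GMP. As the rule required, L-GMP did not overlap the other groups in this probe set, and the nearer fold was 5.64. Another Syne1 probe set that passed the filter lay on the same side but differed little from GMP. It averaged 212 in L-GMP, 141 in AKLG and 191 in GMP, 1.11-fold above GMP. The actin-binding calponin Cnn2 read 3355, 3147 and 2843 in L-GMP and 576 to 951 elsewhere. Vinculin (Vcl), the myosin Myo1f and the actin regulators Evl, Lima1 and Mical1 were further members.

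Both neuropeptide precursors of the set were nearly silent outside L-GMP. Proenkephalin, Penk, is cut into opioid peptides. Its signals were 3328, 1451 and 2106 in L-GMP, 66.4, 30.9 and 19.2 in AKLG, and between -19.6 and -13.4 in GMP. All 3 L-GMP arrays were bright, and only 1 of the 6 others exceeded the floor. The fold was at least 36.0 against AKLG and at least 36.8 against GMP. Neuropeptide Y, Npy, read 71.9, 230.2 and 711 in L-GMP and no more than 23.1 on any other array. It varied more within L-GMP than any other member, by 9.88-fold, and its fold of at least 5.41 became 2.42 without L-GMP replicate 3 and 7.53 without replicate 1.

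Granule, lysosomal and antimicrobial proteins gave 8 higher genes. Prg3, a homologue of the eosinophil granule protein major basic protein, read 849, 960.1 and 1175 in L-GMP and was negative, between -44.9 and -8.79, on all 6 other arrays. Its fold was therefore at least 15.9 against both groups. Prg2, the major basic protein gene itself, was not a member but read 2600.1, 2984 and 2425 in L-GMP, 410.2, 156 and 98.7 in GMP and under the floor in AKLG. Of the 7 markers of eosinophils, basophils and mast cells on the array, 2 had all 3 L-GMP arrays above the 40th percentile. They were Prg2 and the mast cell protease gene Cpa3. In GMP 2 had all 3 arrays above it, Cpa3 and Mcpt8, and in AKLG 0. The summed signal of the 7 was 3200 to 4946, against 1166 to 1467 in GMP and 442 to 485 in AKLG. Cpa3 read 245, 854 and 2206 in L-GMP and 579 to 639.7 in GMP, so L-GMP spread over both sides of GMP. The eosinophil peroxidase gene Epx read 44.2, 34.1 and 51.2 in L-GMP, under the floor. In sorted bulk samples, fewer cells of a type and less RNA per cell cannot be told apart.

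Pglyrp1, a peptidoglycan-binding protein of neutrophil granules, read 1124, 590.2 and 464 in L-GMP, 49.6, 172 and 162 in AKLG, and 152, 110.0 and 131 in GMP. The cathepsin inhibitor Stfa3 read 969, 240.5 and 214 in L-GMP and stayed under the floor on the 6 others; its fold of at least 7.598 became 3.64 without L-GMP replicate 1 and 9.68 without replicate 3. In both genes the first L-GMP array stood above the other 2. The summed signal of 8 neutrophil markers, S100a8, S100a9, Camp, Ngp, Ltf, Lcn2, Mmp8 and Mmp9, ran with it: 36725 in L-GMP replicate 1 and as low as 17952 in the other L-GMP arrays, 9028 to 22624 in GMP and 1111 to 8572 in AKLG. The lowest of these values belonged to AKLG replicate 1, and Mmp9 was at the floor on all 9 arrays. The part of these markers in the results was not tested.

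The serine protease Prss16 read 983, 891 and 780.0 in L-GMP and 90.7 to 150.1 elsewhere, a fold of 6.64. The eosinophil-type ribonuclease Rnase2a was barely separated, with 239, 363 and 188 in L-GMP against 184 on 1 GMP array. Cathepsin B (Ctsb), progranulin (Grn) and the aspartic protease Napsa were 2.11-fold to 2.30-fold above the nearer group. A brighter Ctsb probe set lay on the same side, at 4256 ± 133 in L-GMP, 2132 ± 69.0 in AKLG and 2571 ± 118 in GMP (SD, n = 3 each). Brighter Grn probe sets lay on the same side but differed little. One averaged 10698 ± 149 in L-GMP, 9524 ± 906 in AKLG and 9500 ± 512 in GMP (SD, n = 3 each). Another was 1.14-fold above AKLG, the nearer group.

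**Figure D2:**
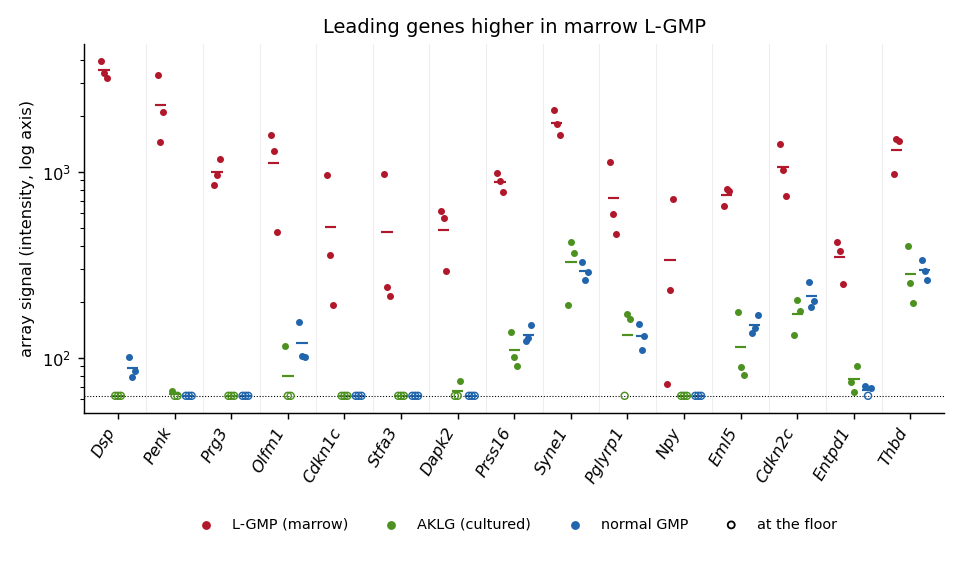
Array signals (log axis) of the 15 higher genes with the largest fold against the nearer group, 1 probe set per gene, with 3 arrays per group as points and the group mean as a bar. Open points lie at the floor of 62.4 (dotted line); Prg3, Cdkn1c, Stfa3 and Npy had all 6 other arrays there, while Cdkn1c, Stfa3 and Npy spread widely within L-GMP.

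Immune receptors, their ligands and their signalling formed the broadest role, with 21 higher genes and a median fold of 2.27. Thrombomodulin, Thbd, a cell surface receptor through which thrombin activates protein C, read 977, 1499 and 1459.7 in L-GMP, 401, 253 and 196 in AKLG, and 337, 292 and 262 in GMP. Entpd1 (CD39), which degrades extracellular ATP, read 419, 377 and 251 in L-GMP and 61.8 to 90.1 elsewhere. Both receptors lay over 4-fold above the nearer group. The cytokine subunit Ebi3 read 3097, 2889 and 2627 in L-GMP and 617 to 1011 on the others. The cytokine Il15, the chemokine receptor Ccr1, the Toll-like receptor homologue Cd180, the costimulatory receptor Cd28 and the inhibitory receptor Vsir were 2.01-fold to 2.66-fold higher.

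Kinases and adaptors that act below such receptors were also members. Protein kinase C beta, Prkcb, read 1949.6, 1950.3 and 1688 in L-GMP, 537, 589.9 and 609.8 in AKLG, and 366, 375 and 418 in GMP. A second Prkcb probe set that missed the rule averaged 1970.2 ± 328 in L-GMP, 608 ± 83.5 in AKLG and 278 ± 24.1 in GMP (SD, n = 3 each). The tyrosine kinase Syk read 1186, 1259.9 and 1179.5 in L-GMP and 443 to 596 elsewhere, and the adaptors Dok3 and Sh3bp2 were 2.53-fold and 2.23-fold higher. The 3 calmodulin-regulated kinases among the members were bright in L-GMP only: Dapk2 read 613, 562 and 292, Camk1d 235, 295 and 345, and Camk1 225, 196 and 227 in L-GMP. On the other 6 arrays none of these kinases passed 87.8.

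The role drawn for brakes of the cell cycle and the DNA damage response took in 9 higher genes, not all of them brakes or repair genes. Cdkn1c (p57) and Cdkn2c (p18) bind and inhibit cyclin-dependent kinases. Cdkn1c read 965, 357 and 192 in L-GMP and stayed under the floor, at 44.2 to 54.5, on the 6 others. Its fold of at least 8.07 became 4.39 without L-GMP replicate 1 and 10.6 without replicate 3. Cdkn2c read 1408, 1019.8 and 746 in L-GMP, 133, 203 and 177 in AKLG, and 256, 188 and 202 in GMP, a nearer fold of 4.91. Both inhibitors were highest on the first L-GMP array and lowest on the third.

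Xpc, which recognises damaged bases for nucleotide excision repair, read 2567, 2359 and 3404 in L-GMP and 513 to 947 on the other arrays. The translesion polymerase Rev1 read 1119, 873 and 885 in L-GMP against 236 to 357. The p53 target Trp53inp1 read 691, 820.3 and 633 against 171 to 431, and Txnip, the thioredoxin inhibitor, 1757, 1590.1 and 2429 against 455 to 1505. The highest value outside L-GMP for Txnip belonged to AKLG replicate 1, whose 2 partners were at 455 and 556. The meiotic recombinase Dmc1, the abasic-site protein Hmces and Ccpg1, named for cell cycle progression, completed the role.

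Transcription factors and their regulators gave 9 higher genes, none of them over 3.61-fold. Mef2c, a MADS-box factor of myeloid and lymphoid progenitors, was a member through 5 probe sets, more than any other gene. Its brightest read 3828, 4182 and 3439 in L-GMP, 2426, 1589 and 1485 in AKLG, and 1353, 1393 and 1426 in GMP. The folds of these probe sets against the nearer group ran from 2.08 to 3.32. Id2, which blocks basic helix-loop-helix factors, read 553, 249 and 195 in L-GMP and 35.7 to 116 elsewhere. The E protein gene Tcf4 read 1727, 2363 and 2851 in L-GMP and 874 to 1507 on the others, with the highest of these on AKLG replicate 1. Tsc22d1, Pbx2, Nkx2-4, Stat3, Med19 and the polyadenylation factor gene Cpeb2 were the remaining genes of the role.

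Transporters, redox enzymes and lipid enzymes added 13 genes. The sodium pump subunit Atp1b1 was a member through 4 probe sets with folds of 2.25 to 4.54, some of them lower bounds. The dicarboxylate transporter Slc13a3 read 415, 146 and 118 in L-GMP and under the floor elsewhere, and its fold of at least 3.63 became 2.11 without L-GMP replicate 1. Slc12a5 (potassium-chloride export), Slc31a2 (copper) and Kcne3 (a potassium channel subunit) were also higher. Glutathione reductase (Gsr) read 2724, 2594 and 3107 in L-GMP against 848 to 1739, and the methionine sulfoxide reductase Msrb1, the outer mitochondrial membrane protein Tspo and the monooxygenase Fmo5 lay 2.02-fold to 2.12-fold above the nearer group. The phosphoinositide phosphatase Inpp4a, the lipase Daglb, the ceramide kinase Cerk and the fatty acid elongation enzyme Hacd4 made up the lipid enzymes.

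Olfm1, a secreted glycoprotein best known from brain, and Eml5, a microtubule-associated protein, had no role assigned but ranked high. Olfm1 read 1570.0, 1289 and 474 in L-GMP, 115, 44.0 and 32.3 in AKLG, and 156, 102 and 101 in GMP, a nearer fold of 9.28. Eml5 read 654, 807 and 793 in L-GMP against 80.3 to 175. In all, 81 of the 113 higher genes and 68 of the 77 lower genes were given a role by hand after the members were known.

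**Figure D3:**
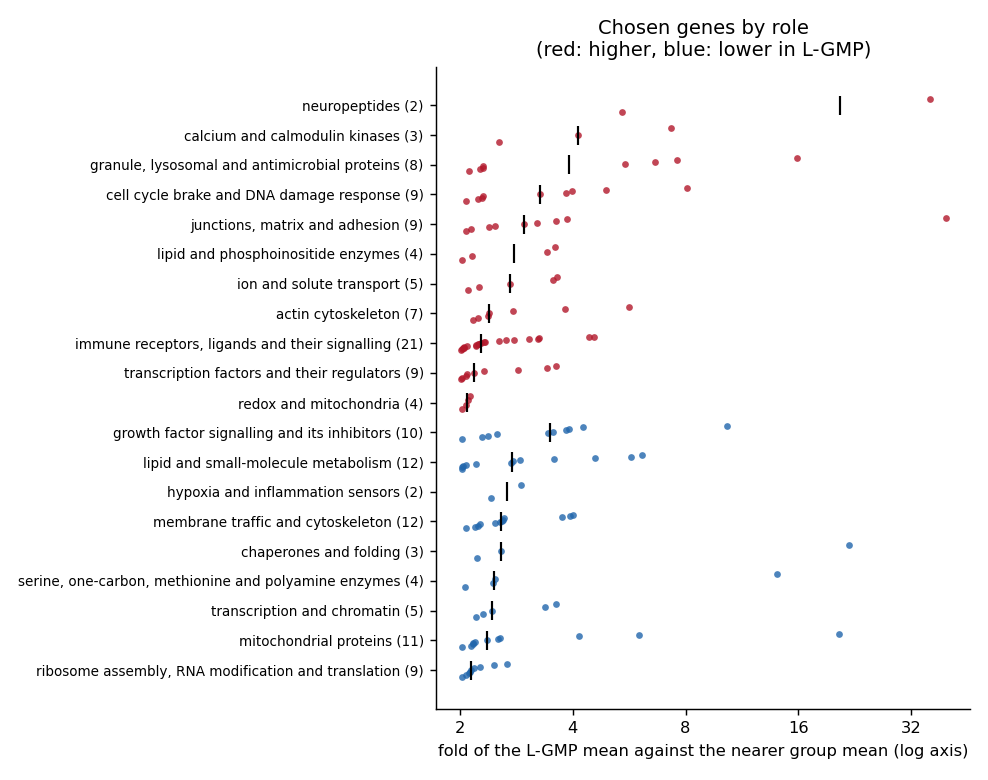
Fold of the L-GMP mean against the nearer of the other group means (log axis) for each chosen gene with a role, higher genes in red and lower genes in blue, with the number of genes in brackets and the median as a black bar. Neuropeptides, granule proteins and junction genes hold the largest higher folds, while the 9 ribosome and translation genes all lie between 2.02 and 2.67.

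The lower side was led by metabolic and folding genes. Cyclophilin C, Ppic, a peptidyl-prolyl isomerase of the secretory pathway, read 17.2, 7.23 and -6.31 in L-GMP, 631, 1747 and 1722 in AKLG, and 1565, 1566 and 1674 in GMP. L-GMP was wholly under the floor, and the fold was at least 21.9. The mitochondrial adenylate kinase Ak4 read 65.9, 8.60 and 31.6 in L-GMP and 1367, 1480.2 and 1416 in GMP. In AKLG it read 112 on replicate 1 and 1763 and 2059.7 on the others, so 1 AKLG array lay near the L-GMP level. Another Ak4 probe set that passed the filter lay on the same side but fell less. It averaged 331 in L-GMP, 453 in AKLG and 440 in GMP.

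Phgdh catalyses the first committed step of serine synthesis from glucose. Its brightest member probe set read 205, 295 and 399 in L-GMP, 4776, 4002 and 4380.4 in AKLG, and 4124, 4241 and 4276 in GMP. The L-GMP mean of 299.7 ± 97.1 (SD, n = 3) was 14.1-fold under GMP and 14.6-fold under AKLG. All 4 of its single-gene member probe sets, with folds of 6.62 to 14.1, have names ending in _x_at, which marks probes that can also bind related transcripts. The one-carbon enzyme Mthfd1, the methionine salvage enzyme Mtap and the polyamine enzyme Odc1 belonged to the same role. Mthfd1 read 407, 341 and 314 in L-GMP against 534 to 903, Mtap 368, 353 and 338 against 499 to 1172, and Odc1 553, 553 and 321 against 811 to 1600.

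The role of mitochondrial proteins, which was drawn to take in the coactivator Ppargc1b, gave 11 lower genes. Ppargc1b, a coactivator of mitochondrial gene expression, read 15.2, 14.5 and 83.3 in L-GMP, 554, 382 and 315 in AKLG, and 494, 554 and 517 in GMP, at least 6.01-fold apart. The mitochondrial nuclease Endog read 90.0, 106 and 116 in L-GMP against 398 to 752. The chaperone Trap1, the membrane ATPase Atad3a (3 probe sets), the ketone body enzyme Oxct1 (3 probe sets), the pyruvate dehydrogenase subunit Dlat, the protease Pitrm1, the carnitine synthesis enzyme Tmlhe, and Fastkd2 and Nipsnap1 were 2.02-fold to 2.55-fold lower. Among these genes are ones for RNA handling, proteolysis, folding and fuel use of the organelle. None of the 11 encodes a subunit of the respiratory chain.

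Ribosome assembly, RNA modification and translation gave 9 lower genes within a narrow band of 2.02-fold to 2.67-fold. Nucleolin (Ncl), the main nucleolar RNA-binding protein, read 621, 562 and 524 in L-GMP, 1033, 1547 and 1058 in AKLG, and 1377, 1338 and 1279 in GMP. The ribosome assembly factor Sdad1 read 551, 541 and 411 against 999 to 1269.7, and the pseudouridine synthase Pus7 123, 125 and 132 against 316 to 392. All 3 L-GMP arrays lay below every other array in these member probe sets, as the rule required of every lower member. Other Ncl probe sets varied. The brightest fell less, at 2345 ± 173 in L-GMP, 3402 ± 170 in AKLG and 3003 ± 137 in GMP (SD, n = 3 each). In the same order, another averaged 1113 ± 144, 1856 ± 94.3 and 2412 ± 269. A further one, at 989 ± 209, 1794 ± 437 and 1018 ± 175, did not separate L-GMP from GMP. Pa2g4, Tsr2, Rpl14, Eif1a, Bzw2 and Lrrc59 were the other members of the role.

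The promoters of some lower genes are shown because they hold the E-box CACGTG, the letters bound by Myc-family and related factors, and those of Phgdh and Dsp because these genes differed strongly. Each run is the 250 bases before the RefSeq start site on assembly GRCm38.p6, 5' to 3' on the gene's strand. Capitals mark the motifs searched, 6 in number and on both strands. They were the E-box CACGTG, the STAT site TTCNNNGAA, the cyclic AMP response element TGACGTCA, the C/EBP site TTGCGCAA, the Meis site TGACAG and the Ets site CCGGAAG. Only CACGTG occurs in the printed runs. The motif begins 200, 140, 91 and 168 bases before the start site in Slc16a1, Ppa1, Bzw2 and Rpl14. These genes encode a lactate and pyruvate transporter, an inorganic pyrophosphatase, a translation regulator and a protein of the large ribosomal subunit.
Slc16a1 promoter, chr3:104638414-104638663, plus strand: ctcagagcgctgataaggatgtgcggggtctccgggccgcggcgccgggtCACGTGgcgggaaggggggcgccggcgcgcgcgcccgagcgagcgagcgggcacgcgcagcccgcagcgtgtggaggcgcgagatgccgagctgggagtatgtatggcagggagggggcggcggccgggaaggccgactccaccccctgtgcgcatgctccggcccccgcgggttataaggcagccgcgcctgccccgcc
Ppa1 promoter, chr10:61648371-61648620, plus strand: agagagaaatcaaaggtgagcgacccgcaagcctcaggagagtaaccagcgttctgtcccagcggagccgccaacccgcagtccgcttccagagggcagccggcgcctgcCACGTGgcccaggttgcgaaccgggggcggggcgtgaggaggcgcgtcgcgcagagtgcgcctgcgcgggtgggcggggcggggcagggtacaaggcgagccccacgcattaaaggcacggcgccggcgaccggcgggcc
Bzw2 promoter, chr12:36156826-36157075, minus strand: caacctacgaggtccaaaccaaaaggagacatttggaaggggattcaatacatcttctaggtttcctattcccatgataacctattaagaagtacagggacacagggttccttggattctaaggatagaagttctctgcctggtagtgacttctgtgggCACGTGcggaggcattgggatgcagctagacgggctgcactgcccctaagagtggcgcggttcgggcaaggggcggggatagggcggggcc
Rpl14 promoter, chr9:120571267-120571516, plus strand: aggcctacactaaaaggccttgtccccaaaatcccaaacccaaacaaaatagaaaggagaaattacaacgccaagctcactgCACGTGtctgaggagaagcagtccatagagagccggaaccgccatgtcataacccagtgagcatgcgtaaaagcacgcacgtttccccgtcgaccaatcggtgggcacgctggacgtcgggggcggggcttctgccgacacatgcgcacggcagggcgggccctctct
Phgdh promoter, chr3:98339970-98340219, minus strand: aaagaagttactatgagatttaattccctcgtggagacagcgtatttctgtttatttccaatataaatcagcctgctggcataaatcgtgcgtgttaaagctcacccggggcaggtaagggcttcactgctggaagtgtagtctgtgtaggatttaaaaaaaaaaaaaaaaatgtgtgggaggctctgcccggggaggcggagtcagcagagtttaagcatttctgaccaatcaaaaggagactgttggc
Dsp promoter, chr13:38151044-38151293, plus strand: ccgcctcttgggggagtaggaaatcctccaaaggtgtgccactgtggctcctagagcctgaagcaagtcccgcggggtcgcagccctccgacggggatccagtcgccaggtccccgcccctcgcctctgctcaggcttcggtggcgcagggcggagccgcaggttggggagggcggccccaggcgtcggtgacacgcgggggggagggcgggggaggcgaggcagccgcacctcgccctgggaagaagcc

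Of the 66 lower genes with a promoter in the table, 12 (18.2%) held CACGTG in the window from 250 bases before to 50 bases after the start. It was held by 8 of 87 higher genes (9.2%) and by 922 of the 9883 promoters of genes named on the array (9.33%). The ratio of observed to expected CpG was at least 0.6 in 74.2% of lower, 47.1% of higher and 61.3% of all promoters. CCGGAAG, the letters of an Ets-family site, was in 3.03% of lower, 12.6% of higher and 15% of all promoters. In the same order, TGACAG was in 18.2%, 12.6% and 17.4%, and TTCNNNGAA in 6.06%, 5.75% and 7.04%. TGACGTCA was in 4.55%, 1.15% and 2.75%, and TTGCGCAA in 0%, 0% and 0.263%. These shares describe letters in a window and were not tested. The promoter of Penk is not in the table. Only 1 pair of members were neighbours in the genome, Gpsm3 and Pbx2, both higher.

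Growth factor signalling and its inhibitors gave 10 lower genes with a median fold of 3.48. Serpinf1, a secreted serpin that restrains vessel growth, read 87.4, 47.9 and 60.9 in L-GMP, 1135, 646 and 712 in AKLG, and 818, 663 and 712 in GMP, at least 10.3-fold apart. The ubiquitin ligase Nedd4 read 333, 384 and 562 in L-GMP against 1694 to 2352. The Hedgehog receptor Ptch1 read 102, 140.0 and 92.6 against 358 to 608. The secreted Wnt inhibitor Sfrp1 read 224, 206 and 134 against 613 to 816. Each of these member probe sets had all 6 other arrays at more than the highest L-GMP signal by 2-fold or more. For Serpinf1, Ptch1 and Sfrp1, another probe set that passed the filter overlapped the other groups. The Serpinf1 one averaged 186 in L-GMP, 199.5 in AKLG and 200.5 in GMP. In the same order, that of Ptch1 averaged 119, 102 and 95.9, and that of Sfrp1 146, 158 and 158. The other Nedd4 probe sets lay below all 6 arrays.

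Spred1 and Spred2, which inhibit Ras-ERK signalling downstream of cytokine receptors, were both lower. Spred1 read 118, 84.3 and 123 in L-GMP, 292, 517 and 437 in AKLG, and 501, 492 and 496 in GMP. Igfbp4, a carrier of insulin-like growth factors, was a member through 4 probe sets. The brightest read 1584, 589 and 837 in L-GMP and 3296 to 3772 elsewhere. Further Igfbp4 probe sets that passed the filter overlapped the other groups. They averaged 128 and 219 in L-GMP, 94.6 and 329 in AKLG, and 117 and 262 in GMP. The cytokine Mif, the Wnt coactivator Bcl9l and the kinase Stk24 completed the role. Egln3, the oxygen-sensing prolyl hydroxylase, read 324, 371 and 298 against 753 to 1924, and the inflammasome sensor Nlrp3 292, 403 and 322 against 681 to 930.

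**Figure D4:**
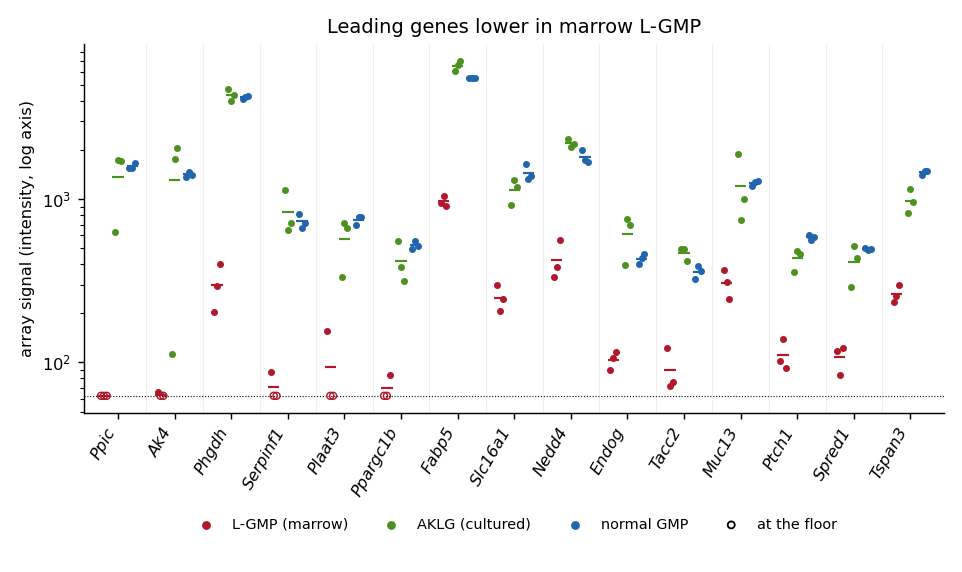
Array signals (log axis) of the 15 lower genes with the largest fold against the nearer group, 1 probe set per gene, with 3 arrays per group as points and the group mean as a bar. Open points lie at the floor of 62.4 (dotted line); for Ak4 the AKLG replicate 1 signal of 112 lies near the L-GMP arrays and far from the other AKLG arrays.

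Lipid and small-molecule metabolism gave 12 lower genes. The fatty acid carrier Fabp5 read 954, 1054 and 903 in L-GMP, 6102, 6634 and 7067 in AKLG, and 5578, 5506 and 5539.9 in GMP, a nearer fold of 5.71. A second Fabp5 probe set averaged 255 ± 24.9 in L-GMP, 2976 ± 475 in AKLG and 1827 ± 100.2 in GMP (SD, n = 3 each). Slc16a1 read 298, 206 and 244 in L-GMP against 922 to 1644, and the phospholipase Plaat3 156, 54.2 and 47.2 against 332 to 779. The thioesterase Acot1, the phospholipid enzymes Lpcat1 and Cds2, and Ppa1 were among the others.

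Membrane traffic and cytoskeleton genes numbered 12 on the lower side. The tetraspanin Tspan3 read 234, 256 and 299.8 in L-GMP, 828, 1159 and 959.6 in AKLG, and 1416, 1485 and 1492 in GMP. The centrosomal protein Tacc2 read 122, 72.1 and 75.5 against 323 to 499, and the cell surface mucin Muc13 366, 311 and 245 against 742 to 1885. The actin bundler Pls3 was negative on all 3 L-GMP arrays and read 82.6 to 219 on the others.

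Among transcription and chromatin genes, Cebpa, the factor that starts granulocyte differentiation and itself 1 of the 9 GMP markers, was lower in L-GMP. It read 419, 280.3 and 317 in L-GMP, 613, 923 and 938 in AKLG, and 955, 1206 and 1347 in GMP. The Kruppel-like factor Klf9 read 393, 508 and 402 against 1112 to 1659.8, and the Polycomb protein Cbx6 115, 105 and 111 against 369 to 645. The histone methyltransferase Suv39h2 read 134, 84.2 and 78.3 against 150.4 to 279. The chaperones Hsph1 and Bag2 were 2.56-fold and 2.22-fold lower.

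Members just inside and outside the limits differed little. On the higher side Anxa5 (2.002-fold) and Med19 (2.01-fold) were the last inside the 2-fold limit, and Tdrd7 and an Arhgap9 probe set (both 1.99-fold) were just outside. On the lower side Cds2 and Bcl9l (both 2.02-fold) were inside, and Polr2e (1.999-fold) and Rai1 (1.996-fold) were outside. For the limit of 1.5-fold between GMP and AKLG, Prkcb (1.499-fold), Cd180 (1.496-fold) and Mif and Tspan3 (both 1.49-fold) were inside. Pcyt1a (1.501-fold), Lamp2 (1.52-fold), Uck2 (1.58-fold) and a probe set of several genes (1.57-fold) were outside.

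Other probe sets of the member genes that passed the filter mostly lay on the same side. Of 44 such probe sets of 32 higher genes, 36 had an L-GMP mean above both other means and 25 had all 3 arrays above the 6 others, while 1, of Tsc22d1, had all 3 below. Of 53 such probe sets of 39 lower genes, 44 had a mean below both others and 29 had all 3 arrays below, with none on the opposite side. Over all 22626 probe sets, 7.3% had all 3 L-GMP signals above the 6 others and 7.63% all below. A dim probe set could pass the filter through its brighter arrays alone, on the higher side the 3 L-GMP arrays. The counts for member genes are therefore partly set by the filter. The Epha7 gene showed how far the rule depends on the probe set. Its 2 member sets were dim, at 127 to 202 and 124 to 169 in L-GMP, whereas a brighter set outside the rule averaged 1545 ± 147 in L-GMP, 222 ± 56.8 in AKLG and 113 ± 13.7 in GMP (SD, n = 3 each).

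The members also varied within L-GMP. The highest of the 3 L-GMP signals was at least 2-fold above the lowest in 21 higher and 5 lower probe sets. Of these, replicate 1 was the highest in 18 and 5. Replicate 1 was the highest L-GMP array in 79 of the 151 higher and 55 of the 100 lower members, against 48.6% of all probe sets that passed the filter. It was also the array with the highest neutrophil marker sum, as given above. Of the higher members, 18 had all 6 other arrays at the floor and 57 had at least 1 there. Of the lower members, 7 had all 3 L-GMP arrays at the floor.

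The surrounding pathways were examined on 35 gene lists, 635 of whose genes were tested with limma against GMP and against AKLG over the whole table. Both comparisons share the 3 L-GMP arrays. Against GMP 3777 of 14578 probe sets passed the adjusted threshold of 0.05, 1947 of them higher in L-GMP, and against AKLG 4354 passed, 1970 of them higher. Taken as 8965 genes, 573 (6.39%) were higher and 671 (7.48%) lower in L-GMP in both comparisons. The median log2 difference over all genes was -0.01 against GMP and 0.00 against AKLG. Of the 190 member genes, 30 were on a list. Calls of member genes rest on the signals that chose them or, where it was brighter, on another probe set of the same gene. For each list the genes that were not members are therefore given apart.

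The list of Myc targets and ribosome biogenesis, which holds the members Ncl and Odc1, had the most genes that fell. Of 37 tested genes, 23 fell and 0 rose against GMP, 30 fell and 0 rose against AKLG, and 21 fell in both, 19 of them not members. Its median log2 difference was -0.42 against GMP and -0.74 against AKLG. Among these 19, Nolc1, a nucleolar chaperone of ribosome assembly, read 1079.7, 968 and 1164 in L-GMP, 1932, 2512 and 2578 in AKLG, and 2425, 1967 and 1962 in GMP. It fell by 0.98 ± 0.13 (SE) on the log2 scale against GMP (adjusted p = 0.000454) and by 1.12 ± 0.13 against AKLG (adjusted p = 0.00017). The ribosomal RNA processing gene Rrp1b and the nucleolar GTPase gene Gnl3 fell in both by 0.87 to 1.04.

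Myc itself read 587, 572 and 657 in L-GMP, 1079.7, 996 and 1028 in AKLG, and 1064, 1232 and 1169.8 in GMP. It fell by 0.93 ± 0.11 (SE) against GMP (adjusted p = 0.00014) and by 0.78 ± 0.11 against AKLG (adjusted p = 0.00044). Its paralogue Mycn went the other way, with 5772, 4182 and 2286 in L-GMP, 2681, 630.2 and 726 in AKLG, and signals under the floor in GMP. Mycn was 1.83 ± 0.49 (SE) higher than in AKLG on the log2 scale (adjusted p = 0.017). It was not a member: its lowest L-GMP array lay below AKLG replicate 1, and GMP and AKLG lay far apart.

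Other lists of biosynthesis fell in part. In nucleotide synthesis, whose member is Mthfd1, 8 of 16 genes fell against GMP, 10 against AKLG and 5 in both, 4 of them not members, and 0 rose in either comparison. This count in both moved between 2 without GMP replicate 3 and 8 without AKLG replicate 1. The share of all genes lower in both moved as well, to 5.1% and 10.3% in these settings, from 7.48% with all arrays. In amino acid response and serine synthesis, around Phgdh, 5 of 24 fell against GMP, 20 against AKLG and 5 in both (4 not members), and 0 rose in either, the count in both being 9 without AKLG replicate 1. The amino acid transporter gene Slc7a5 and the tRNA synthetase genes Gars, Wars and Nars fell in both. In cholesterol and fatty acid synthesis, which held no member, 5 of 22 fell and 3 rose against GMP, and 19 fell and 0 rose against AKLG. Slc7a5 read 119, 116 and 156 in L-GMP, 903, 691 and 625 in AKLG, and 303, 294 and 323 in GMP, so it fell against both but AKLG and GMP differed.

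In oxidative phosphorylation 10 of 37 genes fell and 1 rose against GMP, 16 fell and 3 rose against AKLG, and 5 fell in both, none of them a member. The count in both was 3 without GMP replicate 1 and 9 without AKLG replicate 1, where 5.77% and 10.3% of all genes were lower in both. In glycolysis and hypoxia, with the members Egln3 and Ak4, 4 of 24 fell and 1 rose against GMP, 15 fell and 1 rose against AKLG, and 4 fell in both. The 2 that were not members were Pdk1, which shuts off pyruvate dehydrogenase, and the oxygen sensor Egln1. In STAT5 targets and cytokine feedback, with the members Spred1 and Spred2, 5 of 17 fell and 3 rose against GMP and 8 fell and 2 rose against AKLG. In both, 4 fell, of which Pim1 and Ccnd2 were not members, and Bcl6, a transcriptional repressor, rose. Bcl6 read 149, 117 and 151 in L-GMP and no more than 102 on the other arrays. It passed the low-signal filter through its 3 L-GMP arrays alone, so its call as higher is partly set by the filter. The kinase gene Pim1 read 398, 432 and 292 in L-GMP, 3917, 3425 and 3632 in AKLG, and 1172, 1783 and 1639 in GMP. Ccnd2, cyclin D2, read 193, 132 and 121 in L-GMP and 2303, 2533 and 2537 in GMP, but 169.9, 1104 and 1009 in AKLG, where replicate 1 lay within the L-GMP range.

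The interferon response list held no member, and its direction differed between the comparisons: of 22 genes 9 fell and 1 rose against GMP, and 4 fell and 6 rose against AKLG. Its median log2 difference was -0.28 against GMP and 0.25 against AKLG, and 4 genes fell in both. Of these, Ifitm1, an antiviral membrane protein, read 48.7, 102 and 58.8 in L-GMP, 3634, 5234 and 5337 in AKLG, and 1083, 1079 and 1017 in GMP, and Ifitm3 and Ifitm2 also fell. In immediate early and heat shock genes, whose member is Hsph1, 6 of 21 fell and 0 rose against GMP, and 5 fell and 5 rose against AKLG, with median log2 differences of -0.32 and 0.54. In both, 4 fell, of which Hspe1, Hspd1 and Hspa8 were not members. In chromatin regulators 3 of 27 fell and 1 rose in both, none of them a member.

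The list of MLL fusion targets outside Hox holds the members Mef2c, Cpeb2, Cdkn2c and Id2. Of 15 tested genes, 8 rose and 1 fell against GMP, 10 rose and 0 fell against AKLG, with median log2 differences of 0.83 and 0.62. Of the 8 that rose in both, 4 were those members, chosen for being higher, and 4 were not: Mycn, Jmjd1c, Evi2a and Lmo2. Lmo2, a transcriptional adaptor of blood progenitors, read 4251, 3907 and 4547 in L-GMP, 3699, 2339 and 2411 in AKLG, and 2473, 2224 and 2435 in GMP. Meis1, the Hox cofactor, rose too: 2284, 2108 and 1933 in L-GMP, 1271, 1009 and 928 in AKLG, and 471, 499.9 and 544 in GMP.

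In adhesion and homing 9 of 21 genes rose and 2 fell against GMP, and the same numbers against AKLG. In both, 7 rose and 0 fell. Of these 7, the members were Itgb7, Ccr1 and Vcam1, and the other 4 were the integrin chain gene Itgb2, the chemokine receptor gene Cxcr4, the hyaluronan receptor gene Cd44 and the selectin ligand gene Selplg. Cxcr4, which holds cells in marrow, read 1699, 1839 and 1394 in L-GMP, 636, 755 and 637 in AKLG, and 1150.3, 984 and 1118 in GMP. In Cdk inhibitors and p53 targets, 6 of 21 rose and 0 fell against GMP, while 7 rose and 6 fell against AKLG, with median log2 differences of 0.25 and -0.07. Of the 5 that rose in both, Cdkn1c, Cdkn2c and Trp53inp1 were members, chosen for being higher. The 2 others were Cdkn1b (p27), higher by 0.76 ± 0.13 (SE) against GMP (adjusted p = 0.0015) and by 1.2499 ± 0.13 against AKLG (adjusted p = 5.86e-05), and Cdkn2d (p19). Of 31 cell cycle genes only Pcna rose and Ccnd2 fell in both.

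In the lysosome list 14 of 27 genes rose and 3 fell against GMP, and 11 rose and 4 fell against AKLG. In both, Ctsc fell and 7 rose, among them the member Ctsb and the cathepsin gene Ctsh, at 2022, 2209.8 and 2207 in L-GMP, 142 to 145 in AKLG and 441 to 513 in GMP. That count moved between 4 without GMP replicate 2 and 10 without AKLG replicate 1, where 4.95% and 8.37% of all genes were higher in both. In G protein signalling 8 of 27 rose and 1 fell against GMP, 10 rose and 1 fell against AKLG, and 5 rose in both, none of them a member. The count in both ranged from 3 without AKLG replicate 2, with 6.02% of all genes, to 7 without AKLG replicate 1, with 8.37%. Of 19 neutrophil granule genes, 4 rose (3 of them not members) and 1, Ctsg, fell in both. Without AKLG replicate 1, 8 rose, while the share of all genes higher in both was then 8.37%. Of 24 monocyte and macrophage genes, 7 rose and 7 fell against GMP, 10 rose and 4 fell against AKLG, and 5 rose (4 not members) and 2 fell in both. The summed signal of 9 monocyte and macrophage markers was 10981 to 11977 in L-GMP, 11217 to 12029 in GMP and 4851 to 5404 in AKLG. Single markers differed: Adgre1 read 2749 to 3423 in L-GMP and 361 to 387 in GMP, whereas Ccr2 read 1389 to 1437 in L-GMP and 3442 to 3791 in GMP.

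**Figure D5:**
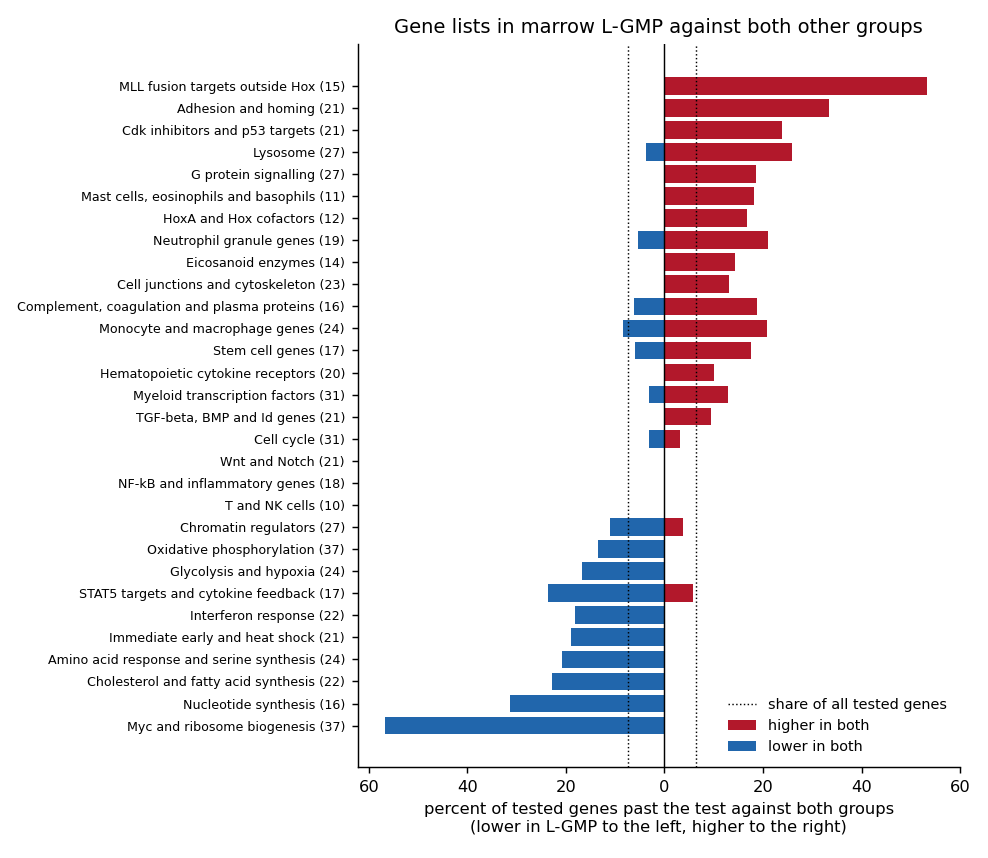
Percent of tested genes of each list with at least 10 tested genes (number in brackets) that passed the limma threshold of 0.05 against GMP and against AKLG in the same direction, members included. Dotted lines mark the shares of all 8965 genes, 6.39% higher and 7.48% lower; Myc and ribosome biogenesis reaches 21 of 37 lower, 19 of them not members, and MLL fusion targets outside Hox 8 of 15 higher, 4 of them not members.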

How the data were processed

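RNA from 9 samples, 3 per group, was hybridised to 1 Affymetrix mouse array each. The deposited values are array intensity on a linear scale, made by the authors with MAS5 version 5, per the submitters' processing notes; the sources used here give no scaling target or other settings. MAS5 subtracts mismatch signal, so values near 0 or below it are unreliable, and they were set to the floor of 62.4. Of 22690 probe sets, 64 controls were left out. Gene names came from the platform annotation (20393 probe sets with 1 symbol, 691 with several), and promoters from RefSeq on GRCm38.p6.

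Folds are ratios of arithmetic means after the floor, and a single fold whose dimmer group has arrays at the floor is a lower bound, written as "at least"; ranges and medians over roles include such bounds. For the lists, log2 signals of all 9 arrays were fitted together with limma 3.58.1 (R 4.3.3; lmFit and eBayes with an intensity trend, 6 residual degrees of freedom, Benjamini-Hochberg threshold 0.05). The fit used 14578 probe sets above 111 on at least 3 arrays, and a gene was taken as its tested probe set of highest mean. The fit was tested on simulated data. Differences are on the floored log2 scale and understate dim genes. Only 3 arrays per group limit the precision. The members and the gene lists were chosen with earlier results of these data known. The values printed in full are those of the 15 genes with the largest fold on each side and of examples from each role; up to 3 genes that were not members were to be named per list, and others were chosen after their values were seen. Alternatives were another floor, scaling, fold limit and filter, a replicate block, and each array left out.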

Additional observations from a re-analysis of the deposited data

How the results depend on the processing

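The number of higher members was 114 to 217 and of lower members 72 to 149 under the other floors, scalings, means and limits between GMP and AKLG. With at least 3-fold required, 53 higher and 30 lower probe sets were left, by construction a subset. Leaving out each array in turn gave 134 to 175 higher and 89 to 128 lower members. Probe sets called against GMP ranged from 2475 without GMP replicate 3 to 4904 without AKLG replicate 1, and those against AKLG from 3341 to 5478; the cause was not tested. For 151 named member genes no alternative reversed the direction, an outcome that the rule which chose them largely fixed in advance. The fold moved by more than the replicate spread in 131 of the comparisons with an alternative and by less in 1983. Counts in the lists stayed within 1.5 times in 312 comparisons with an alternative and moved further in 24.

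With a replicate block 2967 probe sets were called against GMP and 3598 against AKLG, and nucleotide synthesis had 3 genes lower in both in place of 5. The share of all genes lower in both was then 5.63% in place of 7.48%. Same-numbered arrays did not deviate together (correlations of -0.31 to 0.17), so the numbers were not taken as pairs. Signals under the floor have no order, which limits 57 higher members with at least 1 other array there.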
